A study of Mus musculus with 12 samples.

Results

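The genes described here are 9 chemokine receptors of the mouse: Cxcr4, Cxcr2, Cxcr3, Cxcr5, Cxcr6, Ccr1, Ccr2, Ccr7 and Cx3cr1. They were taken as every probe on the array, other than control probes, whose gene name in the scanner output is one of these symbols. That gave 12 probes for the 9 genes, of 39429 probes with 31093 gene names in all. Cxcr6 had 2 probes, Cx3cr1 had 3, and each of the other genes had 1. A probe was tested if some group had it well above background on each of its 3 arrays and it had a usable spot, free of outlier flags, on every array. This left 9 of the 12 probes, of 7 genes, and 29497 probes in all. The probes of Ccr1 and Cxcr5 and 1 of the Cx3cr1 probes were not.

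The study measured RNA of LSK cells (lineage-negative, Sca-1 positive and Kit positive cells, the blood-forming stem and early progenitor cells) from male DBA2/J mice on Agilent arrays with 1 dye. Controls were given PBS and their LSK cells were taken from the bone marrow. The other LSK cells were mobilized ones from peripheral blood, after G-CSF for 5 days (9 injections), after AMD3100 for 1 hour, or after CWHM-823 given together with tGro-b, for which no time is given. Each of the 4 groups had 3 arrays, 12 in all, and no blood LSK cells from PBS-treated mice are among the samples, so treatment and compartment change together in every comparison with marrow. All cells were first enriched for Kit and then sorted, and the age of the mice is not given. The labels do not say that a group's 3 samples are separate mice, so the p-values speak for the spread among these samples, which may be technical.

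Chemokine receptors are G protein-coupled receptors of the cell surface that guide leukocytes along gradients of small secreted proteins, the chemokines. Cxcr4 binds Cxcl12 from the marrow stroma and holds blood stem cells in the marrow, and AMD3100 (plerixafor) blocks that receptor. Cxcr2 binds the Gro chemokines, of which tGro-b is a truncated form, and is best known from neutrophils; CWHM-823 blocks the integrin VLA-4, which anchors progenitors in the marrow. G-CSF works more slowly, in part by lowering Cxcl12 in the marrow. The arrays report RNA and not receptor protein, ligand binding or the amount of receptor at the surface.

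What each probe reads matters for the genes with several probes, so parts of the probe sequences are shown first, as 30 of their 60 bases from the scanner output, 5′ to 3′. The 2 Cxcr6 probes share 50 bases and start 10 bases apart, and 2 of the 3 Cx3cr1 probes share 55 bases and start 5 bases apart, with the shared stretch in capitals in bases 1 to 30 of each:
Cxcr6 probe A_55_P1962209: ACAGAGCTTAAGACTTTAACAAATACAAGA
Cxcr6 probe A_55_P2165199: aatgtataaaACAGAGCTTAAGACTTTAAC
Cx3cr1 probe A_55_P2007964: cgtgcCTAGAGTGTGTCTATCCCACTTGTA
Cx3cr1 probe A_55_P2054362: CTAGAGTGTGTCTATCCCACTTGTAATTCT

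These overlapping probes are no independent readings of their gene. The third Cx3cr1 probe, A_52_P99810, starts 1207 bases from A_55_P2007964 and was not well above background on any array. It is shown with the receptors targeted by the drugs and the receptors that changed:
Cx3cr1 probe A_52_P99810: caagaatgtcttcatgcattcactgactcc
Cxcr4 probe A_52_P585124, bases 31 to 60: gtaaattgAATAAAgctagccgtgatcctc
Cxcr2 probe A_52_P559975: aagggtggggagttcgtgtagaagacacag
Cxcr3 probe A_51_P319022: gccaggcgttgtcagcactgaatgtgccca
Ccr7 probe A_55_P2023542: cagccactgatacctttcctcatgttctgc

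The capitals in the Cxcr4 probe mark AATAAA, the letters of the common polyadenylation signal, searched on the probe strand only. It occurred in 3 of the 12 probes (Cxcr4 and the overlapping Cx3cr1 pair) and in 12.6% of all 39429 probes, which have the same length. The longest exact run that any of the 12 shared with a probe of another gene was 13 to 16 bases. Ccr1 had the lowest G and C content, 21.7%, and Cxcr2 the highest, 53.3%.

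By the scanner output's mm9 positions, the Cxcr4 probe lies on chromosome 1 from 130485079 to 130485138 on the minus strand, and the Cxcr2 probe on the same chromosome from 74206886 to 74206945 on the plus strand. The Cxcr3 probe lies on chromosome X from 98926920 to 98926979 (minus), and the Ccr7 probe on chromosome 11 from 99005551 to 99005610 (minus). Cxcr6 (A_55_P1962209 from 123720719 to 123720778, plus), Ccr1 (123877790 to 123877849, minus) and Ccr2 (124022948 to 124023007, plus) form a cluster on chromosome 9, where the probes of Cxcr6 and Ccr2 are 302 kb apart. Cx3cr1 (A_55_P2007964 from 119957811 to 119957870, minus) and Cxcr5 (44320071 to 44320130, minus) are also on chromosome 9. Exons and untranslated regions were not annotated here, since no gene models of that assembly were used.

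Levels are given as the log2 processed signal minus the log2 of the array's 75th percentile, so that 0 is the level that 75% of probes do not exceed. Of the genes that define LSK cells, Kit lay between 3.05 and 3.64 on the 12 arrays. Ly6a, which encodes Sca-1, lay between 0.61 and 0.81 after G-CSF but below the 75th percentile on all other arrays, at -1.10 to -0.76 in marrow, -1.38 to -0.28 after AMD3100 and -1.35 to -0.25 after CWHM-823 with tGro-b. On all 12 arrays 10 of 11 LSK markers were well above background, but so were 8 of 10 B cell, 8 of 10 NK cell, 8 of 11 monocyte and macrophage and 8 of 12 dendritic cell markers, so detection alone does not tell the cell types apart. Between 70.7 and 83.3% of all probes were well above background. The AMD3100 arrays were the dimmest, with a 75th percentile of 1146 to 1581 against 1647 to 2724 on the others. 1 library differed from its group: the 11 neutrophil markers had a median of 0.48 on marrow array 3, while marrow arrays 1 and 2 had -2.88 and -2.80 and the blood arrays lay between -4.24 and -1.91. Precision is limited by having 3 arrays in a group.

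**Figure D1:**
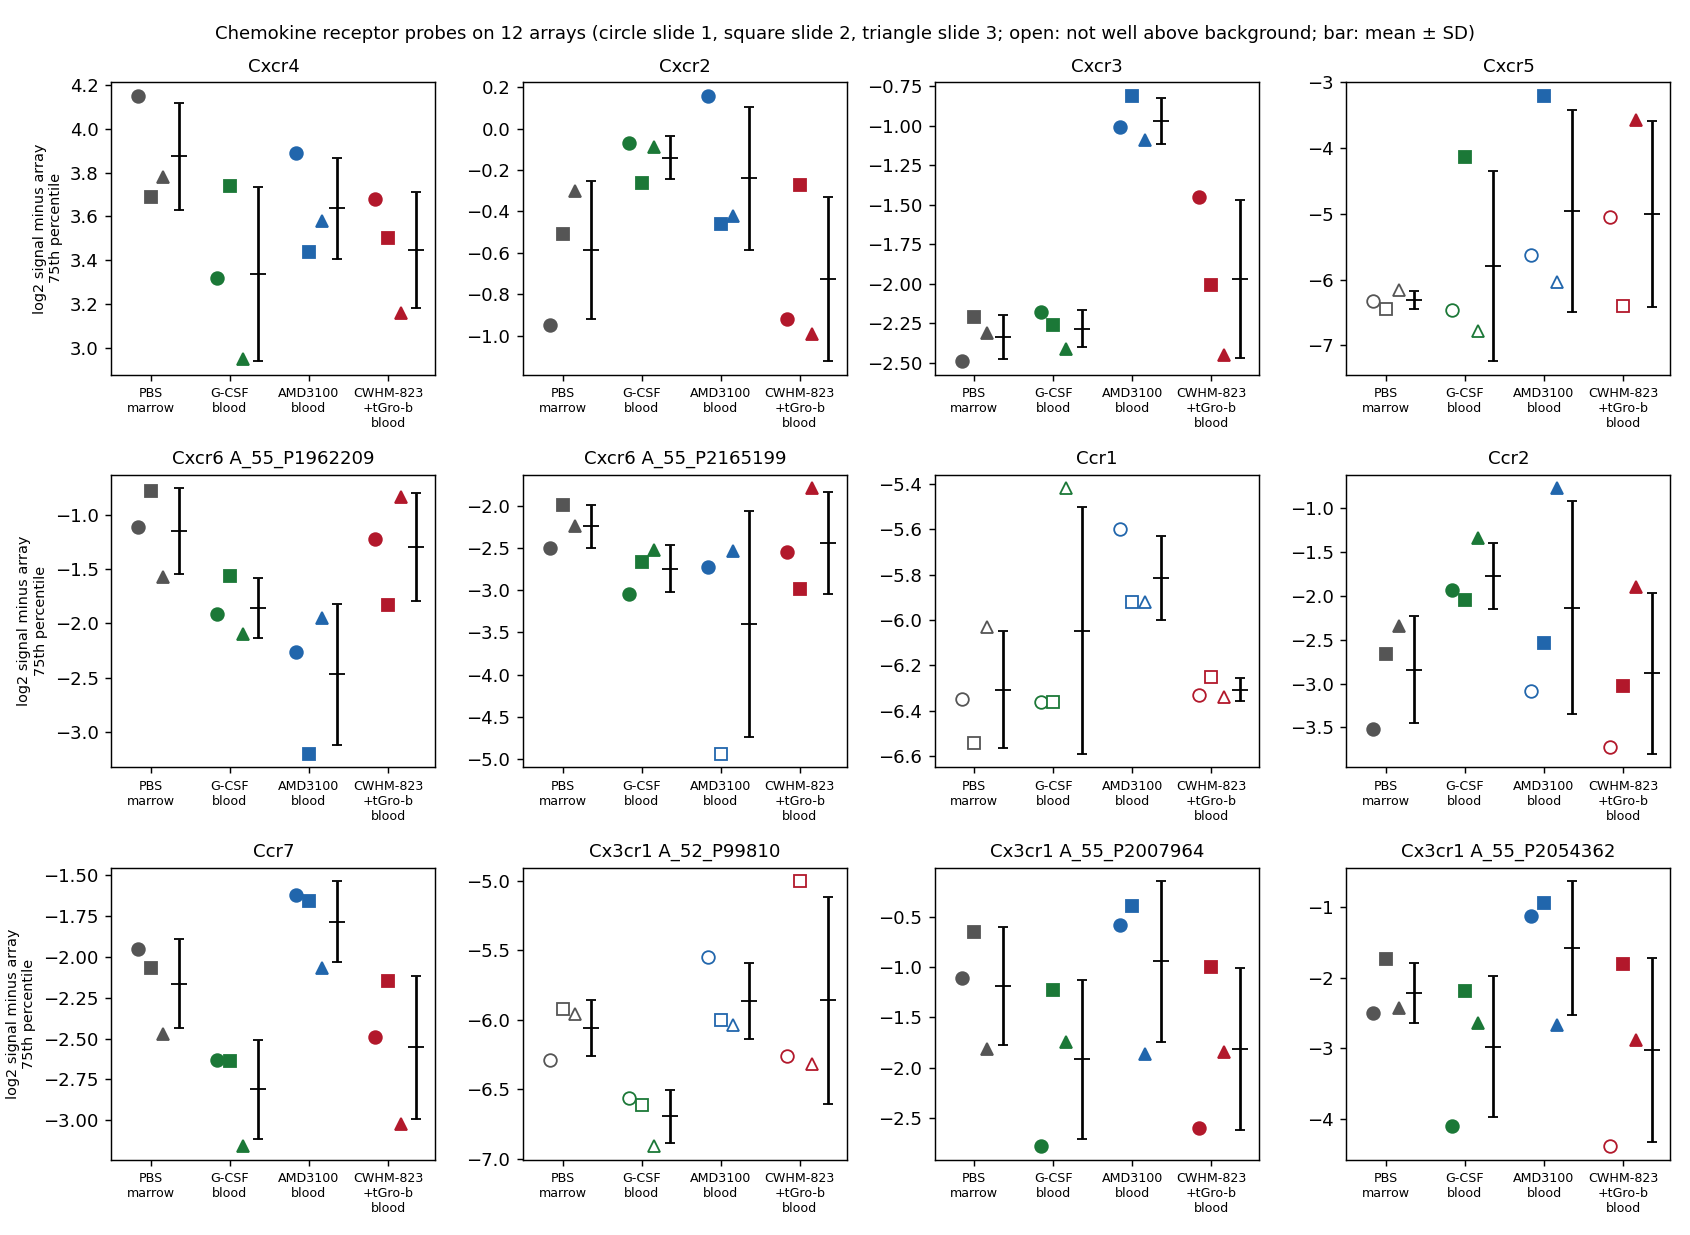
Levels of the 12 chemokine receptor probes on each array (y axis, log2 signal minus the array's 75th percentile, a separate scale per panel) in the 4 groups (x axis). Circles, squares and triangles are arrays of slide 1, 2 and 3, open symbols are not well above background, and the bar beside each group is mean ± SD over 3 arrays. In the Cxcr3 panel the 3 AMD3100 arrays lie above all 9 others. Most pairs of groups overlap in the Cxcr4 and Cxcr2 panels. The exceptions are Cxcr4 after CWHM-823 with tGro-b, below marrow, and Cxcr2 after G-CSF, above marrow and CWHM-823 with tGro-b.

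Cxcr4, the receptor for Cxcl12 and the target of AMD3100, was well above background on all 12 arrays and above the array's 75th percentile on each. Its levels in marrow were 4.15, 3.69 and 3.78 on arrays 1 to 3. After G-CSF they were 3.32, 3.74 and 2.95, after AMD3100 3.89, 3.44 and 3.58, and after CWHM-823 with tGro-b 3.68, 3.50 and 3.16. The marrow mean was the highest and the G-CSF mean the lowest, but of the blood groups only the CWHM-823 with tGro-b arrays all lay below every marrow array, by a gap as small as that between 3.68 and 3.69.

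The group means of Cxcr4 were 3.88 ± 0.25 in marrow, 3.64 ± 0.23 after AMD3100, 3.45 ± 0.26 after CWHM-823 with tGro-b and 3.34 ± 0.39 after G-CSF (SD, n = 3 each). No neighbours in that order differed by more than the larger of their SDs. The log2 difference from marrow (limma, adjusted over all tested probes) was -0.54 ± 0.27 (SE) after G-CSF, adjusted p = 0.283, -0.24 ± 0.27 after AMD3100, adjusted p = 0.654, and -0.43 ± 0.27 after CWHM-823 with tGro-b, adjusted p = 1. The 95% intervals ran from -1.13 to 0.05, from -0.83 to 0.35 and from -1.02 to 0.16. All 3 intervals include 0, and those of G-CSF and CWHM-823 with tGro-b also include a fall by 1 log2 unit. For the blood groups together the difference was -0.40 (95% interval -0.88 to 0.08, adjusted p = 0.676).

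Within slides, each of which held 1 array of every group, Cxcr4 was lower in blood than in marrow on 3 of 3 slides after AMD3100 (-0.26, -0.25 and -0.20) and after CWHM-823 with tGro-b. After G-CSF it was lower on 2 of 3 slides. Its level did not pass between any pair of blood groups either.

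Cxcr2, the receptor for the Gro chemokines and the target of tGro-b, was well above background on all 12 arrays. In marrow its levels were -0.95, -0.51 and -0.30. After G-CSF they were -0.07, -0.26 and -0.09, after AMD3100 0.16, -0.46 and -0.42, and after CWHM-823 with tGro-b -0.92, -0.27 and -0.99. All 3 G-CSF arrays were above all marrow arrays and all CWHM-823 with tGro-b arrays, while the AMD3100 group overlapped with the others.

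From the highest to the lowest the Cxcr2 means were -0.14 ± 0.11 after G-CSF, -0.24 ± 0.35 after AMD3100, -0.59 ± 0.34 in marrow and -0.73 ± 0.39 after CWHM-823 with tGro-b. No neighbours in that order differed by more than the larger of their SDs, to 2 decimals. The differences from marrow were 0.44 ± 0.28 after G-CSF (95% interval -0.17 to 1.06, adjusted p = 0.373), 0.35 ± 0.28 after AMD3100 (-0.27 to 0.96, adjusted p = 0.530) and -0.14 ± 0.28 after CWHM-823 with tGro-b (-0.76 to 0.48, adjusted p = 1). None passed, nor did G-CSF against CWHM-823 with tGro-b (0.59 ± 0.28, 95% interval -0.03 to 1.20, adjusted p = 0.513).

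The highest marrow value of Cxcr2 came from array 3, the one rich in neutrophil transcripts. There the summed level of the neutrophil markers, in units of the 75th percentile, was 31.7, and it was from 1.84 to 3.79 on the blood arrays. S100a8, a defining neutrophil gene, was at 1.14 on marrow array 3 and not well above background on any blood array. Without that array Cxcr2 differed from marrow by 0.59 (adjusted p = 0.358) after G-CSF, 0.49 (adjusted p = 0.428) after AMD3100 and 0.00 (adjusted p = 1) after CWHM-823 with tGro-b. The differences moved the other way without other arrays, to 0.26 after G-CSF without marrow array 1, 0.14 after AMD3100 without AMD3100 array 1 and -0.37 after CWHM-823 with tGro-b without its array 2. The part of the neutrophil transcripts in the Cxcr2 values was not tested.

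Cxcr3, a receptor for Cxcl9, Cxcl10 and Cxcl11 known from activated T cells and NK cells, was the receptor with a difference from marrow that passed. Its levels were -2.49, -2.21 and -2.31 in marrow and -2.18, -2.26 and -2.41 after G-CSF. After AMD3100 they were -1.01, -0.81 and -1.09, and after CWHM-823 with tGro-b -1.45, -2.01 and -2.45. The AMD3100 arrays lay above the other 9 without overlap, the marrow and G-CSF arrays shared 1 range, and the CWHM-823 with tGro-b arrays were spread from that range to midway towards AMD3100.

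After AMD3100, Cxcr3 was 2.58-fold higher than in marrow, a log2 difference of 1.37 ± 0.26 (95% interval 0.79 to 1.94, adjusted p = 0.0285), higher on 3 of 3 slides. It was 1 of the 9 tested receptor probes to pass there, against 1.72% of all tested probes (0.559% higher). G-CSF blood was lower than AMD3100 blood by -1.32 ± 0.26, adjusted p = 0.00930, and did not differ from marrow beyond the spread (0.05 ± 0.26, 95% interval -0.52 to 0.62, adjusted p = 0.912). CWHM-823 with tGro-b blood was at 0.36 ± 0.26 against marrow (adjusted p = 1) and at -1.0 ± 0.26 against AMD3100 blood, where it did not pass (adjusted p = 0.123) but did with the slide as a block (adjusted p = 0.0283).

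The call against marrow did not survive all settings. It was lost with normexp background correction (0.93, adjusted p = 0.0859) and when only marrow and AMD3100 arrays were fitted (adjusted p = 0.0576). It was also lost without marrow array 1, 2 or 3 (adjusted p = 0.128, 0.0878 and 0.0589) or AMD3100 array 1 or 2 (0.0884 and 0.0874), with the difference between 1.29 and 1.43 whichever of the 12 arrays was left out. The difference from G-CSF blood passed under each of these, with an adjusted p of at most 0.0373 when 1 array was left out.

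On the unscaled processed signal the gap was narrower, since the AMD3100 arrays were the dimmest. Cxcr3 read 571, 897 and 744 there, 350, 537 and 332 in marrow, 484, 476 and 511 after G-CSF, and 698, 504 and 360 after CWHM-823 with tGro-b. Each AMD3100 array was still above every marrow and G-CSF array, and on slide 1 the CWHM-823 with tGro-b array was above it.

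T cell markers were examined beside Cxcr3. Their median, over 9 markers, was -1.12 to -0.05 after AMD3100, -2.11 to -0.87 in marrow, -2.63 to -1.24 after G-CSF and -2.04 to -1.23 after CWHM-823 with tGro-b. On all 12 arrays the middle marker was Cd3e, so the median and the Cd3e level are the same reading. The summed level was 10.8 to 13.8 after AMD3100, 8.48 to 12.4 in marrow, 11.6 to 14.6 after G-CSF and 9.16 to 11.8 after CWHM-823 with tGro-b, so the sums overlapped. On slide 3 the AMD3100 median was below that of marrow (-1.12 and -0.87). Cd3e, part of the T cell receptor complex, was well above background on all 12 arrays and Cd3g on 2. Between AMD3100 and marrow 0 of 7 tested T cell markers and 0 of 8 tested NK cell markers passed (1 and 2 higher with the slide as a block). Of all tested probes 1.72% passed there, and 13.6% with the block. Between G-CSF and AMD3100, where 30.1% of all tested probes passed, 2 T cell markers were lower (Cd5 at -2.17, adjusted p = 0.00531, and Cd3e at -1.34, adjusted p = 0.0422) and 1 was higher (Thy1 at 1.31, adjusted p = 0.00766). There 1 NK cell marker, Gzma, was lower (-0.86, adjusted p = 0.0477). The part of such cells in the Cxcr3 differences was not tested, and in sorted bulk cells more cells with a transcript and more of it per cell cannot be told apart.

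Ccr7, the receptor for Ccl19 and Ccl21 that brings lymphocytes and dendritic cells to lymph nodes, was also lower after G-CSF than after AMD3100. It stood at -1.95, -2.07 and -2.47 in marrow and at -2.63, -2.64 and -3.16 after G-CSF. The AMD3100 arrays gave -1.62, -1.66 and -2.07, and the CWHM-823 with tGro-b arrays -2.49, -2.15 and -3.02. G-CSF arrays were below all marrow and all AMD3100 arrays, and AMD3100 arrays overlapped with marrow but were above all CWHM-823 with tGro-b arrays.

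The Ccr7 difference between G-CSF and AMD3100 blood was -1.03 ± 0.29 (95% interval -1.65 to -0.40, adjusted p = 0.0243), lower on 3 of 3 slides. With Cxcr3 this made 2 of 9 receptor probes lower, against 30.1% of all tested probes passing and 16.9% lower, and with so few probes the receptors' share was close to the background. The Ccr7 call was lost with quantile normalization (-0.57, adjusted p = 0.106), with normexp (-0.54, adjusted p = 0.118) and in the authors' deposited table of normalized values (-0.57, adjusted p = 0.116). It was lost, too, without G-CSF array 1 or 3 (adjusted p = 0.0627 and 0.0910) or AMD3100 array 1 or 2 (0.0731 and 0.0747). Against marrow the difference after G-CSF was -0.65 ± 0.29, adjusted p = 0.242, and 0.0269 with the slide as a block. Against AMD3100 blood, CWHM-823 with tGro-b blood was at -0.77 ± 0.29, adjusted p = 0.194, and 0.0245 with the block.

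B cell and dendritic cell markers differed between the same groups. The median of 10 B cell markers was -2.78 to -2.36 after G-CSF, -0.49 to 0.11 after AMD3100, -1.76 to -1.58 in marrow and 0.02 to 0.34 after CWHM-823 with tGro-b. That of 12 dendritic cell markers was -1.46 to -0.89, 0.39 to 1.16, 0.00 to 0.70 and 0.31 to 1.02 in the same order. Between G-CSF and AMD3100, 5 of 9 tested B cell markers and 8 of 10 tested dendritic cell markers were lower and 0 higher, against 16.9% of all tested probes lower. The lower dendritic cell markers include Flt3, which is also in the LSK list, and Ccr9, which is also in the list of other receptors. Their counts there are not separate readings. Summed levels of the dendritic cell markers were 30.3 to 39.7 after G-CSF and 56.3 to 77.7 after AMD3100, and those of the B cell markers 20.9 to 44.4 and 45.4 to 69.2. Of the dendritic cell markers, Itgax was well above background on 3 arrays and Xcr1 on none. Their part in the Ccr7 and Cxcr3 differences was not tested.

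**Figure D2:**
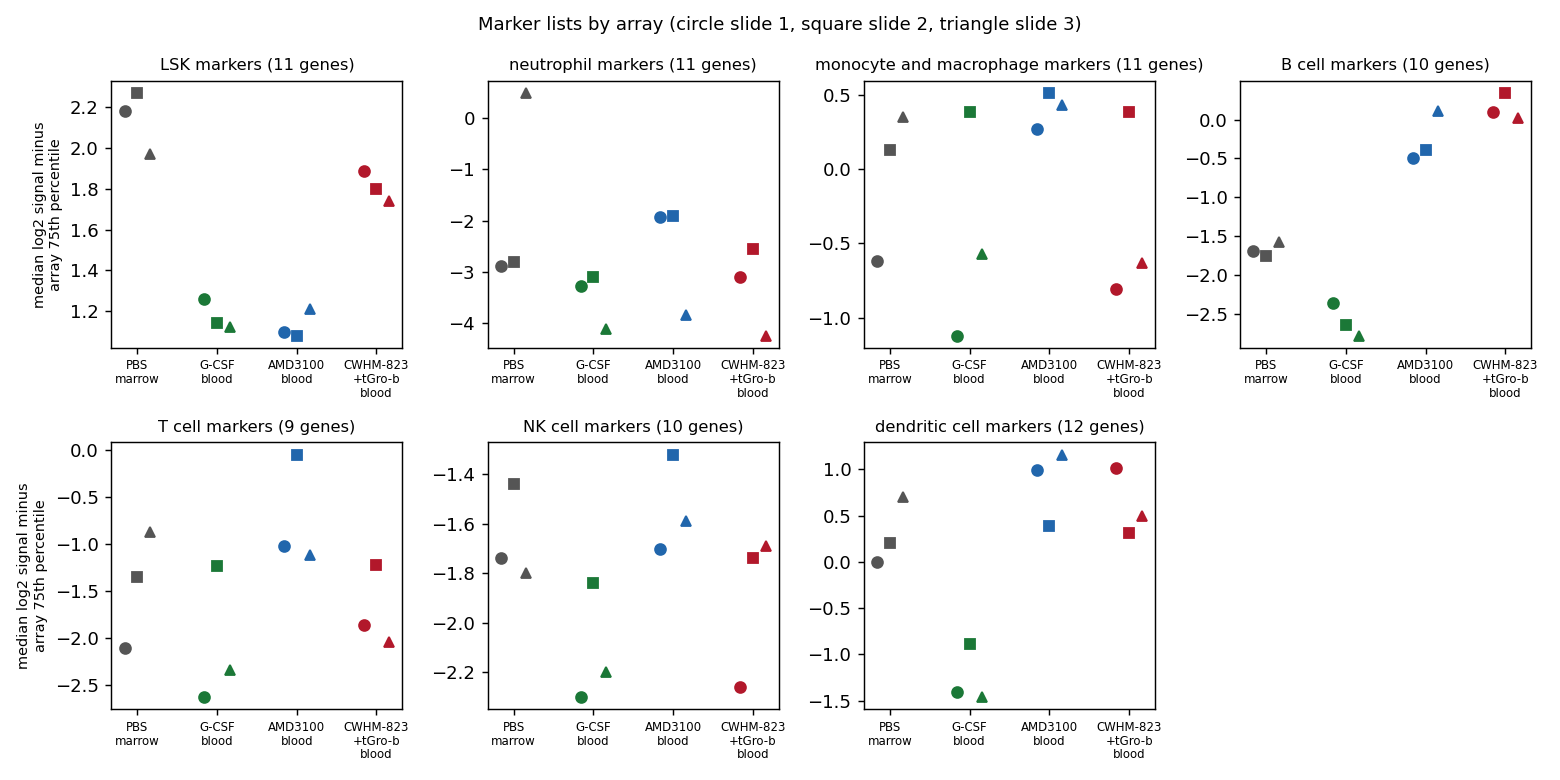
Median level of each marker list (y axis, log2 signal minus the array's 75th percentile) on each array, by group (x axis), with circles, squares and triangles for slides 1, 2 and 3. The B cell and dendritic cell medians are lowest on the G-CSF arrays, and the neutrophil median is highest, at 0.48, on marrow array 3.

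Cxcr6, the receptor for Cxcl16 on T cell subsets and NK cells, was highest in marrow on both overlapping probes by mean. Probe A_55_P1962209 gave -1.11, -0.78 and -1.57 in marrow and -1.91, -1.56 and -2.10 after G-CSF. The AMD3100 arrays were at -2.26, -3.20 and -1.95, below all marrow arrays, and the CWHM-823 with tGro-b arrays at -1.22, -1.83 and -0.84, within or near the marrow range. The AMD3100 difference from marrow was -1.31 ± 0.37 (95% interval -2.12 to -0.51), adjusted p = 0.0952, and 0.0495 with the slide as a block. Without AMD3100 array 2 it was -0.95. CWHM-823 with tGro-b blood was above AMD3100 blood on every array, by 1.18 (95% interval 0.37 to 1.98), which did not pass (adjusted p = 0.156).

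On probe A_55_P2165199 the same difference was -1.16 ± 0.54, adjusted p = 0.272, where the AMD3100 array 2 (-4.94) was not well above background. Without that array it was -0.39. The probes had a Pearson r of 0.859 over the 12 arrays, on the same RNA and slides, and so did not settle the AMD3100 value of Cxcr6 between them.

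Stem cell and B cell genes also differed between AMD3100 blood and marrow, beside Cxcr3 and Cxcr6. Of 11 LSK markers 3 were lower after AMD3100 (6 with the slide as a block) and 0 higher, namely Slamf1 (-2.09, adjusted p = 0.0111), Hlf (-1.31, adjusted p = 0.0178) and Mecom (-1.32, adjusted p = 0.0318). Slamf1 was not well above background on any AMD3100 array, so its level there is only an upper bound. Of all tested probes 1.72% passed in this comparison (0.559% higher), and 13.6% with the block. In 5 equal classes by brightness, from 0.322% to 1.92% of tested probes were lower. The median LSK marker level was 1.08 to 1.21 after AMD3100, 1.12 to 1.26 after G-CSF, 1.74 to 1.89 after CWHM-823 with tGro-b and 1.97 to 2.27 in marrow. Summed levels were 34.1 to 44.2, 45.3 to 55.7, 41.7 to 56.9 and 42.2 to 60.3 in the same order. Hlf was also lower after G-CSF than in marrow (-1.19, adjusted p = 0.0218). In that comparison 1 LSK marker was lower and 2 were higher, against 1.81% of all tested probes passing. Of 9 tested B cell markers 1 was higher after AMD3100 than in marrow (4 with the block) and 0 lower, namely Vpreb3, part of the pre-B cell receptor pathway (1.36, adjusted p = 0.0318). Their part in the Cxcr6 and Cxcr3 differences was not tested.

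Cx3cr1, the receptor for fractalkine on monocytes and NK cells, ranged widely within groups. Probe A_55_P2007964 gave -1.11, -0.65 and -1.81 in marrow, -2.78, -1.23 and -1.74 after G-CSF, -0.58, -0.39 and -1.86 after AMD3100, and -2.60, -1.0 and -1.84 after CWHM-823 with tGro-b. In every group the array of slide 2 was the highest of the 3. The overlapping probe A_55_P2054362 followed it with a Pearson r of 0.958 over 12 arrays. G-CSF against AMD3100 gave -0.98 ± 0.53 (adjusted p = 0.16) on the first and -1.40 ± 0.68 (adjusted p = 0.119) on the second. With the slide as a block the adjusted p was 0.0592 on the first and 0.0446 on the second. By slide the second probe differed by -2.98, -1.25 and 0.03, so slide 3 showed no fall, and its groups overlapped. The distant probe A_52_P99810 was not well above background on any of the 12 arrays, with surrogate values on 9.

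Ccr2, the receptor for Ccl2 that draws monocytes out of the marrow, gave -3.52, -2.66 and -2.34 in marrow and -1.93, -2.05 and -1.34 after G-CSF, with all G-CSF arrays above all marrow arrays. AMD3100 arrays were at -3.09, -2.54 and -0.77 and CWHM-823 with tGro-b arrays at -3.72, -3.03 and -1.90, with array 1 of each not well above background. Slide 3 had the highest array of all 4 groups. The G-CSF difference from marrow was 1.06 ± 0.59 (95% interval -0.23 to 2.36), adjusted p = 0.326, and 0.0479 with the slide as a block. Monocyte and macrophage marker medians did not separate these groups, at -1.12 to 0.38 after G-CSF and -0.62 to 0.35 in marrow, and 0 of 10 tested markers passed between them (1 higher and 1 lower with the block). Of all tested probes 1.81% passed there, and 18.4% with the block.

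Ccr1, a receptor for inflammatory CC chemokines on myeloid cells, was not well above background on any array, and 11 of its 12 values were surrogates set by the scanner software. Cxcr5, the receptor for Cxcl13 on B cells, was well above background on 1 array of each blood group (-4.13 after G-CSF, -3.20 after AMD3100 and -3.57 after CWHM-823 with tGro-b) and on no marrow array. These probes have only upper bounds in most samples and were not tested.

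**Figure D3:**
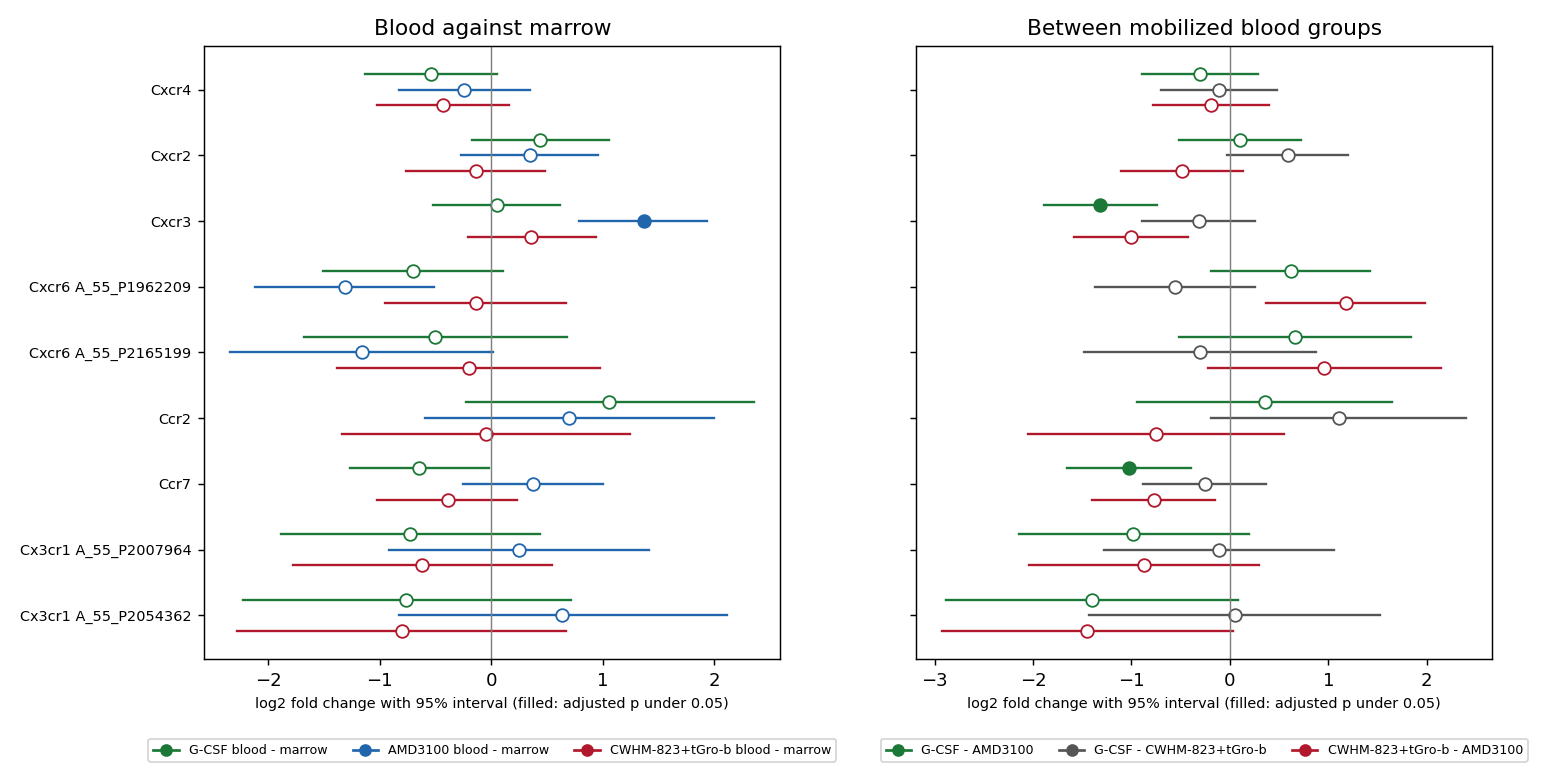
Log2 differences (x axis) with 95% intervals of the 9 tested receptor probes (y axis), blood against marrow on the left and between the blood groups on the right, from the limma fit to 12 arrays. Filled points have an adjusted p under 0.05: Cxcr3 at 1.37 for AMD3100 against marrow, and Cxcr3 at -1.32 and Ccr7 at -1.03 for G-CSF against AMD3100.

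Over the comparisons, the 3 blood groups share their marrow controls, so their differences from marrow are not independent. After G-CSF 0 of 9 receptor probes passed against marrow (1 at an unadjusted p under 0.05) where 1.81% of all tested probes did. With the slide as a block Ccr2 was higher and Ccr7 lower, 2 of 9, where 18.4% of all tested probes passed. After CWHM-823 with tGro-b 0 of 9 passed (0 at an unadjusted p under 0.05, 1 with the block), against 0.390% of all probes, and 0 of 9 with the block, against 1.07%. After AMD3100 the block gave 2 of 9, Cxcr3 and Cxcr6, against 13.6%.

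For all blood groups together 0 of 9 passed (2 at an unadjusted p under 0.05), against 0.915% of all probes, and 0 of 9 with the block, against 2.91%. Between G-CSF and CWHM-823 with tGro-b 0 of 9 passed (0 at an unadjusted p under 0.05), against 0.658%, and 0 of 9 with the block, against 2.06%. Between CWHM-823 with tGro-b and AMD3100 0 of 9 passed (3 at an unadjusted p under 0.05), against 0.207%. With the block Cxcr3 and Ccr7 were lower after CWHM-823 with tGro-b, 2 of 9, against 16.2% of all probes (7.55% lower). The block gave 3 of 9 between G-CSF and AMD3100, Cxcr3, Ccr7 and Cx3cr1, all lower, against 60.5% (36.1% lower).

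Groups that do not overlap were also counted. This held for 4 of 9 probes between G-CSF and marrow (25.5% of all tested probes), 3 of 9 between AMD3100 and marrow (26.3%) and 1 of 9 between CWHM-823 with tGro-b and marrow (10.1%). The 3 for AMD3100 and marrow were Cxcr3 and both overlapping Cxcr6 probes. Between blood groups it held for 2 of 9 (46.7%) for G-CSF and AMD3100, 1 of 9 (13.6%) for G-CSF and CWHM-823 with tGro-b, and 3 of 9 (24.1%) for CWHM-823 with tGro-b and AMD3100. For all blood groups together against marrow it held for 0 of 9 (2.22%). The median difference of the 9 probes from marrow was -0.54 after G-CSF, 0.35 after AMD3100 and -0.20 after CWHM-823 with tGro-b, beside -0.21, 0.07 and -0.04 over all tested probes. The 9 probes include the overlapping pairs of Cxcr6 and Cx3cr1, so these genes weigh more than the others in such counts and medians.

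Brightness bore on the G-CSF and AMD3100 comparison. When tested probes were ranked by mean level and divided into 5 classes of equal size, the median difference between G-CSF and AMD3100 blood ran from -0.73 in class 1, the dimmest, through -0.59 in class 2 and -0.29 in class 3 to 0.17 in both class 4 and class 5. Cxcr3 and Ccr7, with Ccr2, Cxcr6 (A_55_P1962209) and Cx3cr1 (A_55_P2054362), were in class 2. Quantile normalization brought the median of that class to -0.17 and the median of all probes from -0.24 to 0.00. Cxcr3 then differed by -0.99 (adjusted p = 0.0235) and still passed, while Ccr7 did not. Cxcr2 was in class 4 and Cxcr4 in class 5, where the medians were nearer 0. For AMD3100 against marrow the medians were smaller, 0.16, 0.17, 0.06, -0.06 and 0.05 from the dimmest to the brightest class.

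**Figure D4:**
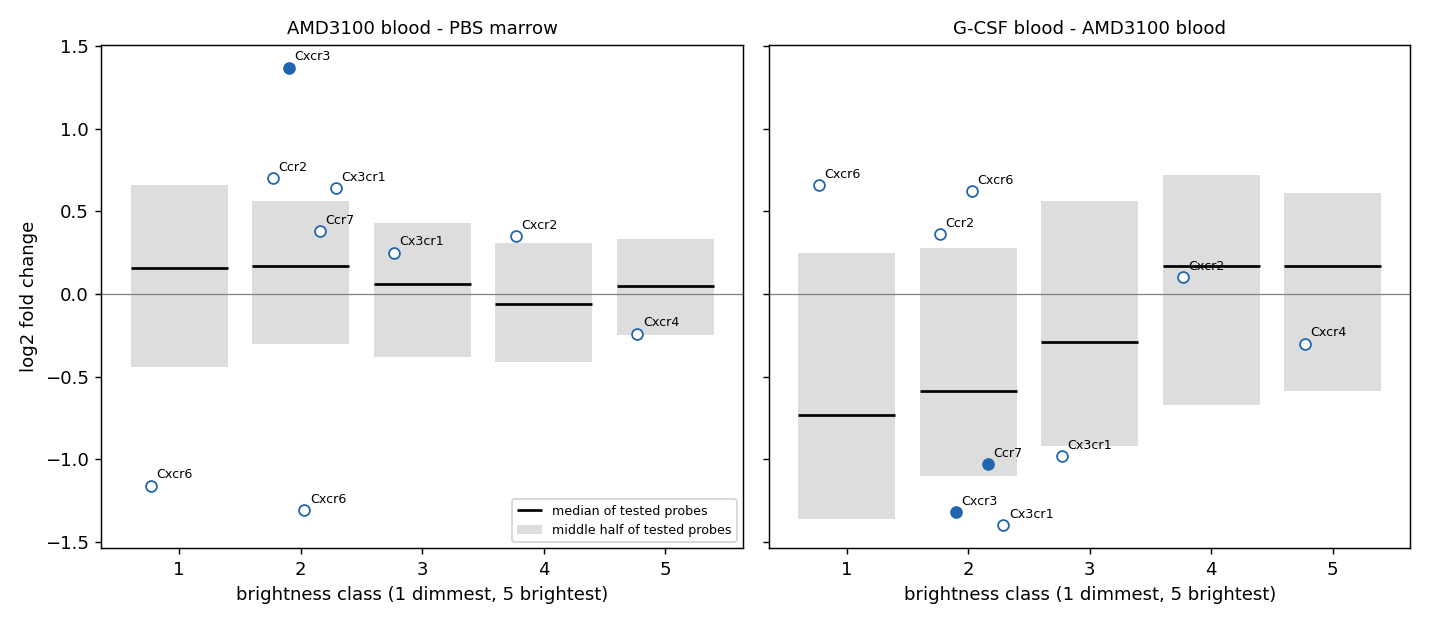
Log2 difference (y axis) of the 9 tested receptor probes, as labelled points (filled where the adjusted p is under 0.05), placed in the brightness class to which their mean level belongs, of 5 equal classes of the tested probes (x axis). Black lines are the medians of all tested probes in a class and grey bars run from the 25th to the 75th percentile; Cxcr3 lies above the bar at 1.37 for AMD3100 against marrow, and Ccr7 lies within the bar at -1.03 for G-CSF against AMD3100.

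Among other chemokine receptors, 9 of 16 listed genes were tested. Ccr9, the receptor for Ccl25 on thymus-seeding progenitors and plasmacytoid dendritic cells, was lower after G-CSF than in marrow (-1.64 ± 0.29, adjusted p = 0.0123), and 0 others passed there. There 1.81% of all tested probes passed. Leaving out marrow array 1, or array 3 of G-CSF, ended the Ccr9 call (adjusted p up to 0.0673). Ccr9 was also lower after G-CSF than after AMD3100 (-2.55 ± 0.29, adjusted p = 0.00109) and CWHM-823 with tGro-b (-2.16 ± 0.29, adjusted p = 0.00356), and these held without any 1 array and under quantile normalization, normexp and the authors' deposited table. In all 4 of the 9 were lower after G-CSF than after AMD3100 (7 with the slide as a block, 2 with quantile normalization, 1 with normexp), and none higher, where 16.9% of all tested probes were lower (36.1% with the block). After AMD3100 and after CWHM-823 with tGro-b 0 of 9 passed against marrow (2 and 0 with the block). Of all tested probes 1.72% and 0.390% passed, and 13.6% and 1.07% with the block. Ackr3, the scavenger receptor that shares Cxcl12 with Cxcr4, was not well above background on any array.

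Of 36 chemokine ligand genes 22 were tested. After CWHM-823 with tGro-b Ccl4, an inflammatory CC chemokine, was higher than in marrow (2.91 ± 0.52, adjusted p = 0.0356). It was 1 of 22 to pass there, against 0.390% of all tested probes. The call was lost without marrow array 2 and without each of the 9 blood arrays (adjusted p up to 0.167, difference 2.19 to 3.51) and with quantile normalization (2.83, adjusted p = 0.0509). The authors' deposited table did not give it either (adjusted p = 0.0752), while it held with normexp (2.80, adjusted p = 0.00398). After G-CSF Ccl9 was higher (1.28 ± 0.28, adjusted p = 0.0437) and Pf4, platelet factor 4, lower (-2.31 ± 0.47, adjusted p = 0.0294). That made 1 of 22 higher and 1 lower, where 1.81% of all tested probes passed. The Ccl9 call was lost without any 1 of 9 arrays (marrow 2 or 3, any G-CSF array, AMD3100 1 or 3, CWHM-823 with tGro-b 2 or 3), with adjusted p up to 0.165, and with quantile normalization (adjusted p = 0.0860). The Pf4 call was lost without any marrow array or G-CSF array 1 or 3 (adjusted p up to 0.127) and with quantile normalization (adjusted p = 0.0511). With normexp the Ccl9 and Pf4 calls held (adjusted p = 0.0288 and 0.0294), and in the authors' deposited table both were lost (0.118 and 0.0730). After AMD3100 0 of 22 passed against marrow, where 1.72% of all tested probes did (2 higher and 1 lower with the block, against 13.6%).

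Between G-CSF and AMD3100 blood 8 of the 22 ligands were lower and 0 higher (14 and 1 with the block, 5 and 0 with quantile normalization), where 16.9% of all tested probes were lower (36.1% with the block). Among these was Ccl5, a T and NK cell chemokine, at -1.05 ± 0.26, adjusted p = 0.0182. That call was lost without G-CSF array 1 or AMD3100 array 1 (adjusted p up to 0.0683). Cxcl11, a ligand of Cxcr3, was at -0.94 ± 0.27, adjusted p = 0.0276, and at -0.27, adjusted p = 0.388, with quantile normalization, and its call was also lost without G-CSF array 1 or 3 or AMD3100 array 1 or 2 (adjusted p up to 0.114). The other Cxcr3 ligands, Cxcl9 and Cxcl10, were not among the 8. Xcl1 had the largest fall of the 8 (-2.11, adjusted p = 0.0111) but did not pass with quantile normalization (-1.64, adjusted p = 0.0750). Cxcl12, the ligand of Cxcr4, was well above background on all 12 arrays, at -1.56, -0.90 and -0.92 in marrow and -2.13, -1.38 and -1.63 after G-CSF. After AMD3100 it was at -0.74, -1.08 and -0.92 and after CWHM-823 with tGro-b at -2.87, -1.31 and -1.34. Its groups overlapped with marrow and it did not pass in any of the 7 comparisons.

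Of 34 genes of receptor signalling and desensitization 33 were tested. Rgs2, which speeds the shutdown of G protein signals, was higher than in marrow after AMD3100 (1.31 ± 0.27, adjusted p = 0.0339) and after CWHM-823 with tGro-b (1.54 ± 0.27, adjusted p = 0.0320). It was 1 of 33 to pass in each, against 1.72% and 0.390% of all tested probes. The first call was lost without any marrow array, G-CSF array 1 or AMD3100 array 1 or 3 (adjusted p up to 0.118). The second was lost without marrow array 2 or 3, any CWHM-823 with tGro-b array, G-CSF array 1 or AMD3100 array 1 (adjusted p up to 0.146). Both were lost with quantile normalization (adjusted p = 0.0645 and 0.0562) and in the authors' deposited table (0.0868 and 0.0808). With normexp both held (0.0278 and 0.00606). After G-CSF 0 of 33 passed against marrow, where 1.81% of all tested probes did (5 higher and 1 lower with the block, against 18.4%). Between G-CSF and AMD3100 blood 7 were higher and 1 lower (15 and 2 with the block, 7 and 1 with quantile normalization). Those 8 of 33 are a smaller share than the 30.1% of all tested probes that passed (60.5% with the block). By direction, 16.9% of all tested probes were lower, and from 8.46% to 18.5% of those in a brightness class were higher. The median difference of the 33 genes was 0.48, beside -0.24 over all tested probes. The higher genes of the list included Grk3, a kinase that phosphorylates active receptors (1.06 ± 0.26, adjusted p = 0.0161), and Itch, the ubiquitin ligase that sends Cxcr4 to lysosomes (1.12 ± 0.27, adjusted p = 0.0151). Rgs16 was the lower one (-1.32 ± 0.34, adjusted p = 0.0189). All 3 calls were lost without AMD3100 array 1. Those of Grk3 and Rgs16 were also lost without G-CSF array 1 or AMD3100 array 2, and those of Itch and Rgs16 without G-CSF array 3 (adjusted p up to 0.0664 for Grk3, 0.0589 for Itch and 0.0820 for Rgs16).

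The genes whose levels ran most like each receptor's were ranked over the 12 arrays, after each slide's mean was subtracted, among 23717 probes well above background on all arrays. Probes with only an accession, clone or predicted gene as name were passed over, so unnamed probes may have ranked higher. Only the best probe of each gene name was kept. For Cxcr3 they were Ccl5 (Pearson r = 0.981), Whrn (0.961) and Gml (0.960). For Cxcr4 they were Isg15 (0.912), Zfp975 (0.898) and Tmem201 (0.897), and for Cxcr2 Socs1 (0.929), Mrgpra5 (0.901) and Pdlim1 (0.892). For Ccr7 they were Zfp781 (0.977), Msx1 (0.974) and Cdh11 (0.971). Cxcr6 ran most like Gprasp2 (0.963), Angpt1 (0.947) and Meis1 (0.945), and Cx3cr1 like Syt17 (0.952), Tex21 (0.949) and Fam174b (0.945). The points share slides, groups and each array's scaling, the top of so many probes is high by selection, and for Zfp975 the r with Cxcr4 was 0.0229 before slide means were subtracted.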

How the data were processed

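Per the file headers, the authors extracted each array with Agilent Feature Extraction 11.5.1.1; the deposited processed signal is a background-subtracted, detrended intensity with no scaling between arrays. The deposited flags (other) mark spots well above background, saturated, outlying or given a surrogate value. A deposited set of normalized intensity values for 30354 probes was an alternative; how the authors made it is not given in the sources used here. Its column medians are nearly equal, and its scale is linear.

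Spots called outliers by the scanner software were not used, and spots of the same probe were averaged (43020 spots, 39429 probes; 146 probes dropped for outliers). From log2 processed signals the log2 75th percentile of each array was subtracted, and the result fitted with limma 3.58.1 (lmFit, eBayes; R 4.3.3), 1 mean per group, 8 residual and 3.87 prior degrees of freedom. P-values were 2-sided, adjusted by Benjamini-Hochberg over 29497 probes in each of 7 comparisons, with a threshold of 0.05. Slide and replicate number are the same factor. After group means were removed, same-numbered arrays of different groups had r across probes of 0.242 to 0.598 (18 pairs). The 36 other pairs had a median r of -0.235, but removing group means makes these negative whenever the same-numbered pairs are positive. By the positive r of the same-numbered pairs the numbers pair the arrays, and the slide was fitted as a block in an alternative.

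List genes were represented by their brightest tested probe, with names brought up to date through accessions (28330 probes matched the gene table). Every receptor probe is described; of the lists, genes that passed against marrow are named. Genes named in other comparisons were chosen after their values were seen. The members and lists were chosen with earlier results of these data known. In simulated data modelled on the G-CSF and marrow comparison (29497 probes), the fit recovered 8% of changes of log2 size 1 and 59% of size 2, with 1 false call. The simulated noise was independent between arrays, with no slide effect, and only a small part of the probes was changed. Recovery with more changed probes or with a slide effect was not simulated. Alternatives were quantile normalization, normexp (offset 50), the authors' table values, other filters on dim probes, the block, a robust prior with an intensity trend, only the groups compared, a single probe per gene and leaving out each array. The block joined with quantile normalization was added after seeing the data.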

Additional observations from a re-analysis of the deposited data

How the results depend on the processing

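No receptor difference that passed in any setting changed sign under the alternatives run. The count of receptor probes that passed between AMD3100 and marrow, 1, became 0 with normexp, 0 with only the groups compared, 2 with the replicate block and 2 with the block and quantile normalization, and 0 to 1 when each array was left out. Between G-CSF and AMD3100 the count of 2 became 1 with quantile normalization, 1 with normexp and 1 in the authors' deposited table, and 1 to 2 when each array was left out. Between G-CSF and marrow it rose from 0 to 2 with the replicate block and 1 with the block and quantile normalization. Between CWHM-823 with tGro-b and AMD3100 it rose from 0 to 2 and 3 with the same settings. The replicate block changed no other receptor call than those given for Cxcr3, Ccr7, Cxcr6, Ccr2 and Cx3cr1. Over all tested probes the block raised the counts from 534 to 5428 (G-CSF and marrow), 507 to 4007 (AMD3100 and marrow), 115 to 317 (CWHM-823 with tGro-b and marrow), 8873 to 17849 (G-CSF and AMD3100), 61 to 4774 (CWHM-823 with tGro-b and AMD3100), 194 to 607 (G-CSF and CWHM-823 with tGro-b) and 270 to 857 (all blood and marrow). Leaving out 1 array moved them to 242 to 860 for G-CSF and marrow, 1847 to 12008 for G-CSF and AMD3100 and 10 to 127 for CWHM-823 with tGro-b and AMD3100. For AMD3100 and marrow the share of tested probes that passed went from 1.72% to between 0.363% (without marrow array 1) and 1.75%. Where a setting is not itself a change in the number of arrays, the cause of a lost or gained call was not tested. For G-CSF against marrow, the comparison simulated, a change of log2 size 1 was recovered for 8% of changed probes, so a receptor that did not pass there is not thereby shown to be unchanged. Signals of Ccr1, Cxcr5 and 1 Cx3cr1 probe near background limit these to bounds.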
